A study of Mus musculus with 6 samples.

Results

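The genes described here encode the stress sensors of the endoplasmic reticulum (ER), the transcription factors they control and the proteases that release those factors. They are 10 of the 52550 gene rows of the deposited count table, taken by symbol: Ern1, Ern2, Xbp1, Eif2ak3, Atf6, Atf6b, Mbtps1, Mbtps2, Creb3l1 and Creb3l2. The count table holds 6 RNA sequencing libraries given as alveolar type II (AT2) epithelium, which makes lung surfactant. The cells were taken from C57BL/6 mice by magnetic sorting for EPCAM after depletion of CD45-bearing cells. Every library carries Sftpc+/creERT2, a Cre recombinase driven by the surfactant protein C gene and switched on by tamoxifen, together with Grp78f/f, floxed alleles of the gene for the ER chaperone Grp78. The 3 control libraries are labelled as without tamoxifen and the 3 libraries labelled knockout as with it, so the drug and the recombined allele cannot be told apart. A further label gives 10 days after tamoxifen for the controls as well, and the age of the animals is not given in the sources used here. Recombination can occur only in cells that use the Sftpc promoter, and nothing in the labels says that the 3 libraries of a group came from separate animals, and the spread that p-values are set against may be technical.

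Library totals ran from 110770711 to 149520306 counts, and the 10 AT2 markers examined summed to between 103070 and 119920 CPM (counts scaled to a library size of 1e+06) in controls and to between 40117 and 50822 CPM in the libraries labelled knockout. The 10 airway secretory and mucous markers examined summed to 30590 to 56459 CPM and 31823 to 35451 CPM, so the libraries also held airway RNA. The part of airway RNA in the values below was not tested. Transcripts of Hspa5, the gene for Grp78, were higher in the libraries labelled knockout (3809 to 9262 CPM) than in controls (925 to 1355 CPM). A count over the whole gene cannot show whether the floxed exons were removed, and every direction below is one between libraries as labelled. In bulk RNA, fewer cells of a type and less RNA per cell cannot be told apart. Library 3 labelled knockout stood apart from libraries 1 and 2: 7 plasma cell genes summed to 1638 CPM there, against 266 and 245 CPM in the other libraries labelled knockout and 14.6 to 74.2 CPM in controls. That sum leaves out the eighth marker, Sdc1, a choice made after its values were seen, since it was abundant in every library and lower in those labelled knockout (log2 fold -0.56, edgeR adjusted p = 0.00733). With it the sums were 909, 841 and 901 CPM in controls and 834, 806 and 2235 CPM in libraries 1, 2 and 3 labelled knockout. In library 3 labelled knockout 9 leukocyte markers without Lyz1 summed to 92.7 CPM, against 14.1 and 14.5 CPM in libraries 1 and 2. Controls had 9.81 to 14.7 CPM. Lyz1, abundant in every library, was lower in those labelled knockout (log2 fold -0.69, edgeR adjusted p = 0.00739). With Lyz1 the sums over tested markers were 3123, 2724 and 3107 CPM in controls and 1968, 1861 and 1832 CPM in those labelled knockout. Control 3 also differed from controls 1 and 2. Its airway markers summed to 30590 CPM against 56459 and 53688 CPM. Its 10 fibroblast and smooth muscle markers summed to 581 CPM against 225 and 223 CPM. Results that rest on library 3 labelled knockout are given with and without it.

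When unfolded proteins accumulate in the ER lumen, chaperones of the Grp78 type leave the luminal domains of 3 kinds of membrane sensor. IRE1, encoded by Ern1 and in mucous epithelium by Ern2, cuts the Xbp1 mRNA so that it is read as an active transcription factor. PERK, encoded by Eif2ak3, phosphorylates the translation factor eIF2alpha, and ATF6 moves to the Golgi, where the site-1 and site-2 proteases (Mbtps1 and Mbtps2) free its DNA-binding part. The CREB3-like factors are built and released like ATF6. Secretory cells such as AT2 cells carry a large load of protein through the ER.

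Because sensors are switched by processing, the step that IRE1 performs is shown here as sequence. The stretch below is Xbp1 mRNA (transcript Xbp1-201, exon 4; chr11:5524254-5524329, plus strand, mm10), taken from the GENCODE M21 transcript, with the 26 bases that IRE1 removes in capitals (chr11:5524279-5524304).
Xbp1: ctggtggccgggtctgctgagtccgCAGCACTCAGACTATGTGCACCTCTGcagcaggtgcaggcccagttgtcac
The capitals were placed by searching the coding sequence for pairs of cut sites of the form CNG followed by CNG, cut between them, that lie 26 bases apart. There were 2 such pairs, and the pair shown lengthened the reading frame from 267 to 371 codons while the other left 73. The removed piece is 26 of 2129 transcript bases, so counts per gene add the cut and uncut forms together and give no measure of IRE1 activity.

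Against controls, the libraries labelled knockout had 1 of the 10 genes called higher and 4 called lower at an edgeR adjusted p under 0.05, and with the replicate number as a block 7 were called. All 10 passed the filter on low counts. Across the 18849 genes tested, 36.8% were called, 18.0% higher and 18.8% lower, so 5 called of 10 is not far from the background. The groups did not overlap for 6 of the 10, against 51.6% of all tested genes. The median log2 fold of the 10 was -0.32, against 0.02 over all tested genes. Atf6 rose, while Atf6b, Ern1, Mbtps1 and Creb3l1 fell. The calls of the 4 that fell ended when libraries were scaled by total count alone (edgeR adjusted p = 0.0524 for Creb3l1 to 0.463 for Ern1), a scaling that moves the median of all genes up by 0.26 on the log2 scale.

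**Figure D1:**
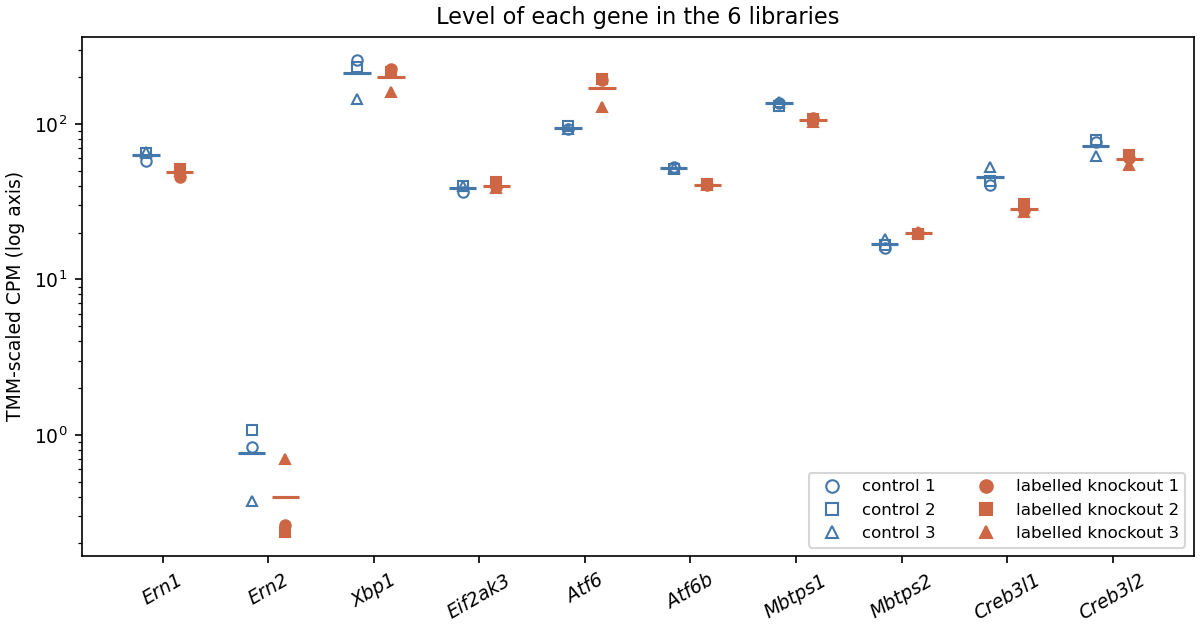
TMM-scaled CPM (log axis) of the 10 genes in each library; open blue symbols are controls, filled orange symbols are libraries labelled knockout, the symbol shape is the library number and bars are group means. Atf6 is the gene whose orange symbols all lie well above the blue ones, and Xbp1 and Ern2 show the widest spread within groups.

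The IRE1 sensor gene of most tissues, Ern1 (chr11:106394650-106487852, minus strand, mm10), fell. Its level was 58.0, 64.7 and 66.3 CPM in controls 1, 2 and 3, and 45.8, 51.2 and 49.5 CPM in libraries 1, 2 and 3 labelled knockout. The lowest control lay above the highest library labelled knockout. The fitted log2 difference was -0.37 (SE 0.0899; edgeR adjusted p = 0.0173), or 1.29-fold lower. The call ended without control 2, library 1 or library 2 labelled knockout (adjusted p = 0.0732, 0.0748 and 0.0502), with log2 folds of -0.36, -0.32 and -0.40.

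Ern2 (chr7:122169893-122186207, minus strand), the IRE1 paralog of mucus-secreting epithelium, was close to the floor of detection. It had 95, 145 and 49 counts in controls 1, 2 and 3, which is 0.833, 1.07 and 0.375 CPM. In libraries 1, 2 and 3 labelled knockout it had 36, 28 and 98 counts, or 0.265, 0.235 and 0.695 CPM. Libraries numbered 3 were the low one among controls and the high one among those labelled knockout, so the groups overlapped. With all libraries the log2 fold was -0.93 (95% interval -2.18 to 0.32, edgeR adjusted p = 0.209), and without library 3 labelled knockout it was -1.60 (adjusted p = 0.0337). Among airway secretory and mucous markers, the mucin gene Muc5b lay at 150 to 329 CPM in controls and 160 to 213 CPM in libraries labelled knockout, and the 10 markers summed to 30590 to 56459 and 31823 to 35451 CPM. Their part in the Ern2 values was not tested.

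Xbp1 (chr11:5520659-5525893, plus strand), which encodes the factor that IRE1 activates, was the most abundant of the 10 genes. It measured 257, 234 and 144 CPM in controls 1, 2 and 3, and 225, 217 and 161 CPM in libraries 1, 2 and 3 labelled knockout. The library numbered 3 was the lowest in each group, and the groups overlapped fully. The log2 fold was -0.07 (95% interval -0.60 to 0.45, edgeR adjusted p = 0.815), an interval that leaves room for a change of up to about 0.6 on the log2 scale in one direction. Its sign turned with the scaling: it was 0.003 with upper-quartile factors and 0.19 with total counts, neither called (adjusted p = 0.993 and 0.461). It also turned without control 1 (0.08) and without library 3 labelled knockout (0.06). Plasma cells are known for high Xbp1, and the part of the plasma cell RNA described above in these values was not tested.

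The known targets of XBP1 were mostly higher although Xbp1 itself was not called. Of 27 tested genes that XBP1 is known to drive, 20 were called higher and 0 lower, with a median log2 fold of 0.79. That is 74.1%, against 18.0% of all tested genes called higher. DESeq2 and limma-voom also called none lower, and at an unadjusted edgeR p under 0.05 the count of lower targets was 0. Derl3, a channel component of ER-associated degradation, measured 4.75, 4.05 and 7.37 CPM in controls and 382, 394 and 188 CPM in libraries 1, 2 and 3 labelled knockout (log2 fold 5.90, SE 0.398, edgeR adjusted p = 0.000397). Sdf2l1, an ER co-chaperone gene, rose by a log2 fold of 3.26, Sel1l, the adaptor of the HRD1 ligase, by 1.91, and Edem1, a mannosidase-like gene, by 1.56. Of these, Derl3, Sdf2l1 and Sel1l are also on the list of ATF6 targets described below. The count of XBP1 targets called higher was 20 with all libraries. The count fell to 12 without control 2, without control 3, without library 1 or without library 2 labelled knockout. Their summed level was 4525, 4359 and 3710 CPM in controls and 10270, 10296 and 6241 CPM in libraries 1, 2 and 3 labelled knockout. Library 3 was the lowest of its group in this sum. The part of plasma cell RNA in these values was not tested.

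Transcripts that IRE1 itself is known to cut and so destabilise went both ways. Of 9 such transcripts 3 were called lower and 3 higher, with a median log2 fold of 0.12. That is 66.7% called, against 36.8% of all tested genes. Bloc1s1, the most widely used of them, was at 45.1, 40.3 and 35.8 CPM in controls and 25.2, 24.9 and 28.8 CPM in the libraries labelled knockout, with no overlap (log2 fold -0.62, SE 0.113, edgeR adjusted p = 0.0058). Hgsnat, a lysosomal acetyltransferase gene, fell by 0.74 on the log2 scale. Scara3 and Pdgfrb rose by 0.76 and 1.57. Pdgfrb is a pericyte and fibroblast gene, and 10 fibroblast and smooth muscle markers summed to 223 to 581 CPM in controls and 1196 to 1341 CPM in libraries labelled knockout, a shift whose part in these values was not tested. The sum includes Pdgfrb itself, and without the 3 markers that also stand in a list described here (Col1a1, Col1a2 and Pdgfrb) the other 7 had a summed level of 136, 132 and 273 CPM in controls 1, 2 and 3 and of 606, 657 and 576 CPM in libraries 1, 2 and 3 labelled knockout. Of 14 genes whose products bind or regulate IRE1, 6 were called higher and 2 lower (median 0.04), or 57.1% called. The higher calls are partly shared with other lists: Sec61a1 and Pdia6 are also XBP1 targets counted above. Pdia6 and Hspa5, the gene with the floxed alleles, are also on the list of ATF6 targets described below. The lower count was 1 when control 2, library 1 or library 2 labelled knockout was left out. Bax and Bak1, cell death effectors that also bind IRE1, rose by log2 folds of 2.03 and 0.73, and Map3k5, the kinase ASK1 downstream of IRE1, fell by 0.69.

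Eif2ak3 (chr6:70844515-70905245, plus strand), the PERK gene, had the log2 fold nearest 0 of the sensor genes. It shares exonic bases only with Gm43292 on the opposite strand, which had 0 counts in all 6 libraries. Its level was 36.5, 40.2 and 40.1 CPM in controls and 39.3, 42.0 and 38.8 CPM in the libraries labelled knockout, and the ranges overlapped. The log2 fold was 0.04 (95% interval -0.15 to 0.23, edgeR adjusted p = 0.734). Scaling by total counts gave 0.29 (adjusted p = 0.0524), and without control 1 the sign turned (-0.02). The list of its branch holds 15 genes and includes the other eIF2alpha kinase genes Eif2ak1, Eif2ak2 and Eif2ak4. Of the 15, 8 were called higher and 3 lower (median 0.57), or 73.3% called against 36.8% of all tested genes. The lower calls were Ppp1r15b (log2 fold -0.48) and the kinase genes Eif2ak1 (-0.32) and Eif2ak4. The lower count was 1 without control 2, library 1 or library 2 labelled knockout. Ddit3, which encodes the CHOP factor, stood at 11.0, 11.4 and 6.72 CPM in controls and 313, 299 and 105 CPM in libraries 1, 2 and 3 labelled knockout (log2 fold 4.62, SE 0.475, edgeR adjusted p = 0.001). Trib3, a pseudokinase gene that CHOP induces, rose by 3.87, and Dnajc3, an ER co-chaperone and PERK inhibitor gene, by 1.39. Eif2ak4, which encodes the eIF2alpha kinase GCN2, fell from 26.6, 31.3 and 34.6 CPM to 14.4, 15.0 and 19.3 CPM (log2 fold -0.93, SE 0.147, edgeR adjusted p = 0.00356).

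Atf6 (chr1:170704674-170867771, minus strand) was the sensor that rose. Controls held 92.4, 97.5 and 93.5 CPM, and libraries 1, 2 and 3 labelled knockout 190, 195 and 129 CPM. The lowest library labelled knockout, library 3, was still above every control. The controls had a mean of 94.5 CPM with an SD of 2.68 CPM (n = 3). Relative to controls the log2 fold came to 0.86 (SE 0.16, 95% interval 0.49 to 1.23, edgeR adjusted p = 0.00624), which is 1.81-fold. Without library 3 labelled knockout it was 1.03 (adjusted p = 0.000133), and leaving out any other library gave 0.76 to 0.88 with the call kept. The called direction also held with every other scaling and filter tried.

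Atf6b (chr17:34647146-34655074, plus strand) encodes the paralog ATF6-beta, which is anchored and cleaved in the same way and is known as a weaker activator. It moved the other way, from 52.5, 51.2 and 52.3 CPM in controls to 40.2, 40.8 and 40.7 CPM in the libraries labelled knockout. The spread was 0.678 and 0.311 CPM (SD, n = 3 each), and the groups were well apart. Its log2 fold of -0.36 (SE 0.072; edgeR adjusted p = 0.00842) stayed called without any 1 library. With scaling by total counts it was -0.10 (adjusted p = 0.369). The pair can be compared without any scaling between libraries: each control held 1.76 to 1.90 Atf6 counts per Atf6b count, and each library labelled knockout 3.17 to 4.78.

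Known targets of ATF6 were higher. All 14 genes of that list were called higher and 0 lower (median log2 fold 2.21), against 18.0% of all tested genes called higher. Of the 27 tested XBP1 targets 8 are on that list as well. Hspa5, the gene with the floxed alleles, is on it too and is part of the count and of the sum below. Alone it held 1355, 1288 and 925 CPM in controls and 9262, 9180 and 3809 CPM in libraries 1, 2 and 3 labelled knockout. DESeq2 and limma-voom also called all 14 higher, and an unadjusted edgeR p under 0.05 made none of them lower. Their summed level was 5428, 5321 and 4544 CPM in controls 1, 2 and 3, and 28885, 29210 and 13951 CPM in libraries 1, 2 and 3 labelled knockout, with library 3 lowest of its group as for Atf6 itself. Pdia4, a disulfide isomerase gene, rose by a log2 fold of 3.10, and Creld2, an ER folding factor gene, by 3.55. Derl3, Sdf2l1 and Sel1l stand in this list too. Without 1 library, 12 to 14 of the 14 were called.

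The DNA element through which ATF6 acts is present in the start regions of many of these genes and is shown for 6 of them. The windows are 250 bases before to 50 bases after each start, from RefSeq (GRCm38.p6). The element is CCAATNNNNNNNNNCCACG on either strand, in which the CCAAT part binds NF-Y and the CCACG part ATF6, and capitals mark it below on the strand of the gene, where it may read in reverse. The positions are those of the stretches printed: Hspa5 chr2:34772010-34772058, Hsp90b1 chr10:86705623-86705671 (minus strand), Creld2 chr15:88819505-88819553, Derl3 chr10:75893227-75893275, Pdia6 chr12:17266476-17266524 and Dnajc3 chr14:118937812-118937860.
Hspa5: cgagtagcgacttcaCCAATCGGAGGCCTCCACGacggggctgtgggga
Hsp90b1: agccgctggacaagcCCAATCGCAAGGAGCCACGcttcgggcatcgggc
Creld2: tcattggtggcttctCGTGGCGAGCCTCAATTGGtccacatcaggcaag
Derl3: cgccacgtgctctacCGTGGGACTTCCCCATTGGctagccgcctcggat
Pdia6: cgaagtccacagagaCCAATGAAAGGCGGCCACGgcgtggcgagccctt
Dnajc3: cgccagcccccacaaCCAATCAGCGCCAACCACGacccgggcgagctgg
The shorter element ATTGGNCCACG was found in Herpud1 and Dnajb11 (log2 folds 1.11 and 0.58). The longer one was found in 7 of 12 windows of the ATF6 target list, the last being Calr, and in 39 of 32817 windows of the same length over all genes (0.119%). The log2 folds of the genes printed were 2.64 for Hspa5, 2.51 for Hsp90b1, 3.55 for Creld2, 5.90 for Derl3, 1.04 for Pdia6 and 1.39 for Dnajc3. The list was drawn from textbook targets, so the share describes the list and is no evidence about these cells.

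Windows of 7 of the 10 sensor and factor genes could be searched (Ern1, Xbp1, Eif2ak3, Atf6b, Mbtps1, Mbtps2 and Creb3l2). None of the 7 held the element above, the shorter ATTGGNCCACG (0.0366% of all windows), the XBP1 core TGACGTG (2.01%) or the cyclic AMP response element TGACGTCA (1.79%). This says only that these letters are not in these windows. The NF-Y box CCAAT, which lies inside both ER stress elements, was in 3 of the 7 (37.4% of all windows). Eif2ak3 had 6 copies, Creb3l2 had 2 and Atf6b 1.

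Partners of ATF6 moved in both directions. Of 11 genes 4 were called higher and 2 lower (median 0.02), or 54.5% called against 36.8% of all tested genes. The lower count was 0 without control 2, library 1 or library 2 labelled knockout, 1 without control 1 and 4 without library 3 labelled knockout, while 4 were higher in each case. Pdia5, a disulfide isomerase that acts on ATF6, was at 8.03, 8.35 and 8.48 CPM in controls and 38.1, 37.7 and 20.3 CPM in libraries labelled knockout (log2 fold 1.95, SE 0.232, edgeR adjusted p = 0.00125). Wfs1, whose product wolframin promotes ATF6 degradation, rose by 1.53. The COPII coat genes Sec24d and Sec23a, whose products form the vesicles for export from the ER, rose by 0.84 and 0.40.

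Mbtps1 (chr8:119508156-119558735, minus strand), the site-1 protease gene that makes the luminal cut in ATF6, CREB3-like factors and SREBPs, fell. Its level was 137, 131 and 139 CPM in controls and 109, 107 and 103 CPM in libraries labelled knockout, with no overlap. The fitted log2 difference was -0.35 (SE 0.0813; edgeR adjusted p = 0.014). It was not called without control 2, library 1 or library 2 labelled knockout (adjusted p = 0.0527, 0.0502 and 0.0628), with log2 folds of -0.38, -0.37 and -0.36.

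Mbtps2 (chrX:157535371-157598715, minus strand), the site-2 protease gene that completes the release, lay the other way. Controls held 16.0, 16.7 and 18.2 CPM and libraries labelled knockout 20.0, 19.4 and 20.2 CPM, so the groups did not overlap. The log2 fold of 0.23 (95% interval 0.03 to 0.44) did not pass the threshold (edgeR adjusted p = 0.0733). It passed with the replicate block (0.23, adjusted p = 0.0462), without control 3 (0.28, adjusted p = 0.0464) and with scaling by total counts (0.48, adjusted p = 0.0141). The gene shares 2867 exonic bases with Yy2 on the same strand, which had 0 to 91 counts where Mbtps2 had 1822 to 2850. Site-1 protease counts per site-2 protease count were 7.66 to 8.54 in controls and 5.08 to 5.52 in libraries labelled knockout.

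Most genes of a list that joins the remaining CREB3 family with the sterol-regulated SREBP system, whose factors the same proteases cut, were lower. Of 7 tested genes 5 were called lower and 0 higher (median log2 fold -0.71), and DESeq2 and limma-voom gave the same 2 counts. That is 71.4%, against 18.8% of all tested genes called lower. At an unadjusted p under 0.05 none was higher. Creb3, a factor cut by both proteases, lay the other way at 50.9, 48.9 and 41.7 CPM in controls and 66.9, 65.1 and 45.5 CPM in libraries 1, 2 and 3 labelled knockout (log2 fold 0.33, edgeR adjusted p = 0.141). It was called higher without library 3 labelled knockout (0.48, adjusted p = 0.00817), with the replicate block (0.31, adjusted p = 0.0266) and with scaling by total counts (0.58, adjusted p = 0.012). Insig2, an ER anchor of the SREBP system, was not called. Srebf2, which encodes the main regulator of cholesterol synthesis, was at 356, 375 and 397 CPM in controls and 182, 185 and 215 CPM in libraries labelled knockout (log2 fold -0.95, SE 0.112, edgeR adjusted p = 0.00121). The fall was also called for Srebf1 (log2 fold -0.82), for the CREB3 family member Creb3l4 (-0.71), for Insig1, which holds SREBPs in the ER (-1.04), and for Scap, their escort (-0.43). Of 10 SREBP target genes 7 were called lower and 0 higher (median log2 fold -0.90). DESeq2 called 9 lower and limma-voom 7, neither any higher, and none was higher at an unadjusted p under 0.05. Among these targets the log2 fold was -1.46 for Acaca, which encodes acetyl-CoA carboxylase, and -1.19 for Idi1, an isoprenoid synthesis gene. All 10 AT2 markers were called lower too (median log2 fold -1.2), and the part of AT2 RNA in the values of both lists was not tested.

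Creb3l1 (chr2:91982328-92024502, minus strand) encodes OASIS, a factor best known from bone, where it drives collagen genes. It fell from 40.7, 42.8 and 52.6 CPM in controls 1, 2 and 3 to 28.0, 30.6 and 27.1 CPM in libraries 1, 2 and 3 labelled knockout. Control 3 was the highest and the groups did not overlap. Expressed as a log2 fold this is -0.67 (SE 0.117, 95% interval -0.94 to -0.40, edgeR adjusted p = 0.00497), which is 1.59-fold lower. Without control 3 it was -0.55 (adjusted p = 0.00836), and the call held without any 1 library.

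Creb3l2 (chr6:37327255-37442146, minus strand) encodes the paralog BBF2H7, which in cartilage drives the COPII gene Sec23a. It measured 76.1, 79.0 and 62.6 CPM in controls and 60.3, 63.4 and 54.4 CPM in libraries labelled knockout. The groups overlapped through control 3 alone. The log2 fold, -0.29 (95% interval -0.55 to -0.03, edgeR adjusted p = 0.0806), did not pass the threshold. The call was made with the replicate block (-0.28, adjusted p = 0.0144) and without control 3 (-0.39, adjusted p = 0.0287). With scaling by total counts it was -0.03.

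Genes that the CREB3-like factors are reported to drive were mostly higher, while Creb3l1 was lower and Creb3l2 was not called. Of 6, 5 were called higher and 0 lower (median log2 fold 1.37), or 83.3% against 18.0% of all tested genes called higher. The list is not separate from the others: Sec23a and Sec24d are also ATF6 partners counted above, and Sec24d is also an XBP1 target. Col1a1 and Col1a2 are also among the fibroblast and smooth muscle markers. Neither DESeq2 nor limma-voom called any lower, and at an unadjusted p under 0.05 none of the 6 was lower. Fn1, the fibronectin gene, was at 31.7, 35.7 and 33.6 CPM in controls and 160, 188 and 228 CPM in libraries labelled knockout (log2 fold 2.51, SE 0.145, edgeR adjusted p = 0.000233). Col1a2, a type I collagen gene, was at 50.2, 50.6 and 153 CPM in controls, where control 3 also had the highest sum of the 7 fibroblast and smooth muscle markers outside these lists (273 CPM against 136 and 132 CPM), and at 286, 305 and 354 CPM in libraries labelled knockout. The part of fibroblast RNA in the values of this list, those of Fn1 and the collagen genes among them, was not tested. Without control 2 or library 1 labelled knockout 3 of the 6 were called.

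**Figure D2:**
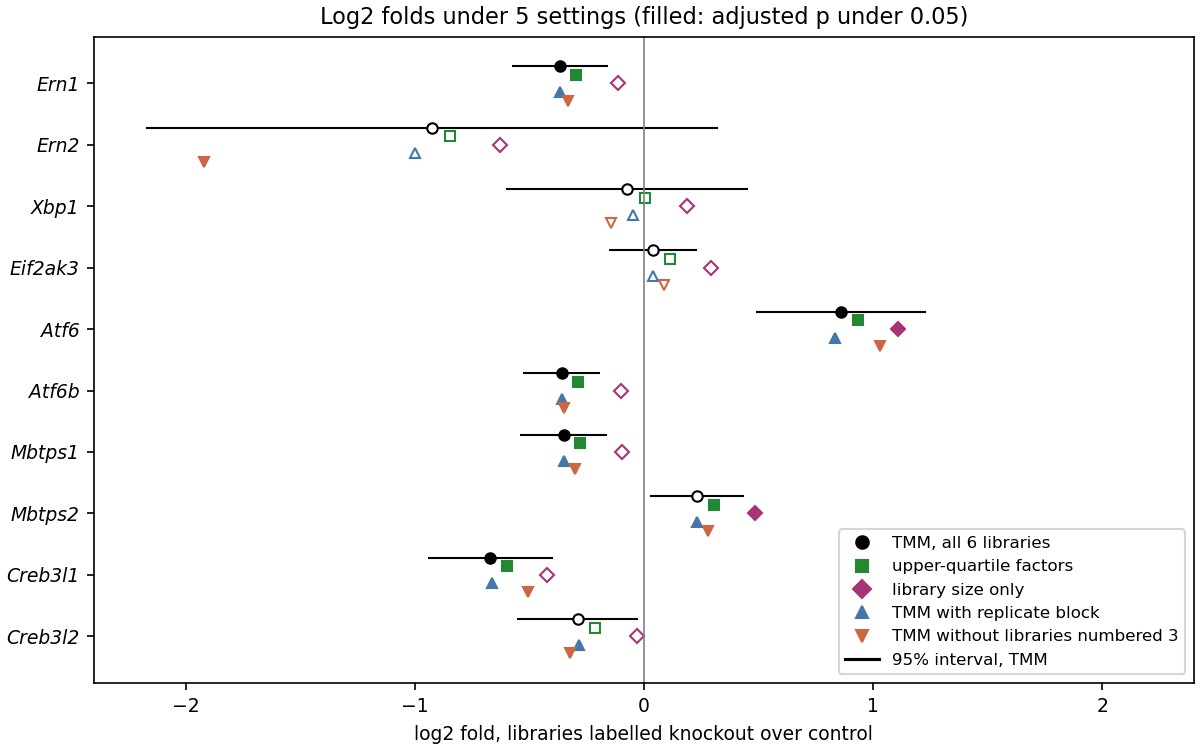
Log2 fold of the libraries labelled knockout over controls (x axis) for each of the 10 genes under 5 settings; filled symbols passed an adjusted p of 0.05 and the black line is the 95% interval of the fit with TMM factors. Atf6 is filled and positive in all 5, the folds scaled by library size (diamonds) lie to the right of those with TMM for every gene, and Xbp1 crosses 0.

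Per kilobase of exon, the 10 genes spanned a wide range. In controls Xbp1 led with 78.7 ± 22.1 CPM per kb (SD, n = 3), followed by Mbtps1 with 31.2 ± 0.928, Atf6b with 20.2 ± 0.263 and Creb3l1 with 17.4 ± 2.45. Atf6 came next with 13.0 ± 0.37, then Creb3l2 with 10.2 ± 1.24, Eif2ak3 with 8.04 ± 0.431 and Ern1 with 7.72 ± 0.538. Mbtps2 had 2.13 ± 0.142 and Ern2 0.261 ± 0.122. Neighbours in this order that overlapped were Atf6b with Creb3l1 and Eif2ak3 with Ern1. In libraries labelled knockout Atf6 stood at rank 3 with 23.7 ± 5.10, overlapping Mbtps1 (24.5 ± 0.767) and above Atf6b (15.8 ± 0.121), and Creb3l2 overlapped Eif2ak3. Lengths are the union of coding transcripts in GENCODE M21, which may differ from the annotation counted.

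Ratios between 2 genes of a library do not depend on scaling between libraries, and 7 were compared. The groups did not overlap for 5 of them, and each of these had p = 0.1 in the exact two-sided permutation test (adjusted p = 0.14 over the 7), the smallest that 3 libraries against 3 allow. On the log2 scale Atf6 over Atf6b was 0.86 ± 0.0596 in controls and 2.05 ± 0.338 in libraries labelled knockout (SD, n = 3 each), a difference of 1.19 and 1.09 to 1.39 without 1 library. Atf6 over Ern1 differed by 1.20 and Eif2ak3 over Ern1 by 0.41. Mbtps1 over Mbtps2 differed by -0.58, and Creb3l1 over Creb3l2 by -0.38, or -0.16 without control 3. Ern1 over Ern2 and Ern1 over Xbp1 overlapped between the groups (exact permutation p = 0.3 and 0.6). Such ratios show unequal change and not which gene of the pair changed.

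**Figure D3:**
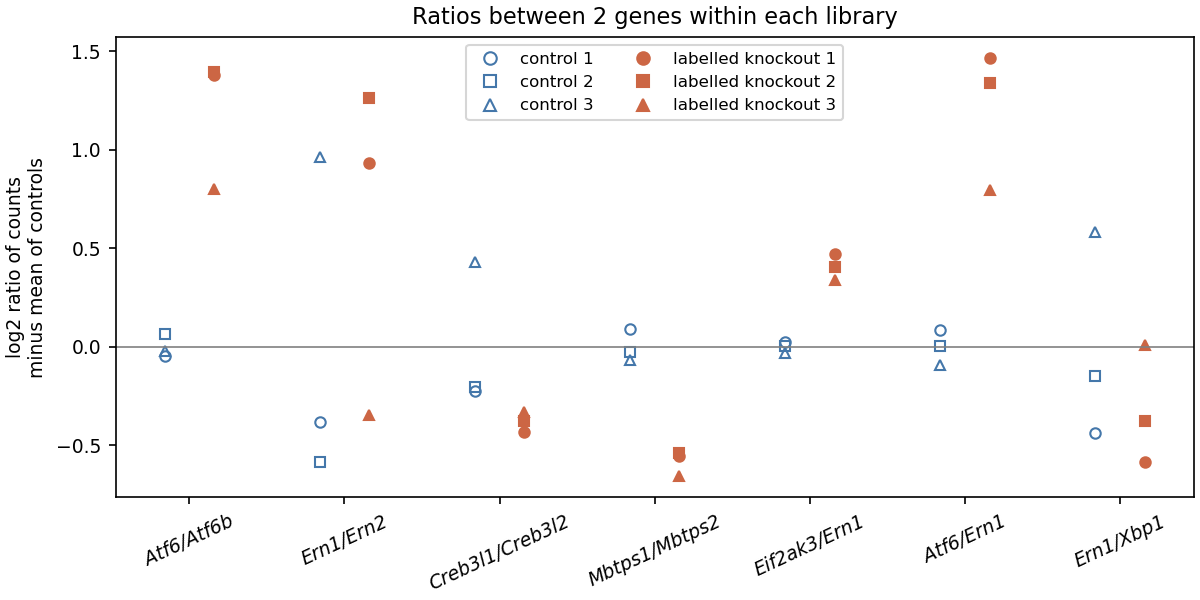
Log2 ratio of the counts of 2 genes within each library, minus the mean of the 3 controls (y axis), for 7 pairs; open blue symbols are controls and filled orange symbols libraries labelled knockout. Orange symbols lie above all blue ones for Atf6/Atf6b, Eif2ak3/Ern1 and Atf6/Ern1 and below them for Mbtps1/Mbtps2 and Creb3l1/Creb3l2.

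Across the 6 libraries, the profile of Atf6 was most like those of Tbrg4, Ipo4 and Ppp1r15a among the 9424 other genes of at least median level (Pearson r of log2 CPM = 0.999, 0.999 and 0.998). Ppp1r15a, whose product GADD34 reverses PERK signalling, was at 64.2, 80.0 and 65.1 CPM in controls and 335, 360 and 133 CPM in libraries labelled knockout. For Xbp1 the most alike were Cog8, Golph3l and Ncbp1 (r = 0.995, 0.991 and 0.991), and Cog8, a Golgi tethering subunit, had 42.6, 40.6 and 29.6 CPM in controls and 38.1, 38.4 and 32.1 CPM in libraries labelled knockout. These are the highest of many correlations over 6 libraries that share group and library number, and they are given as a description.

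**Figure D4:**
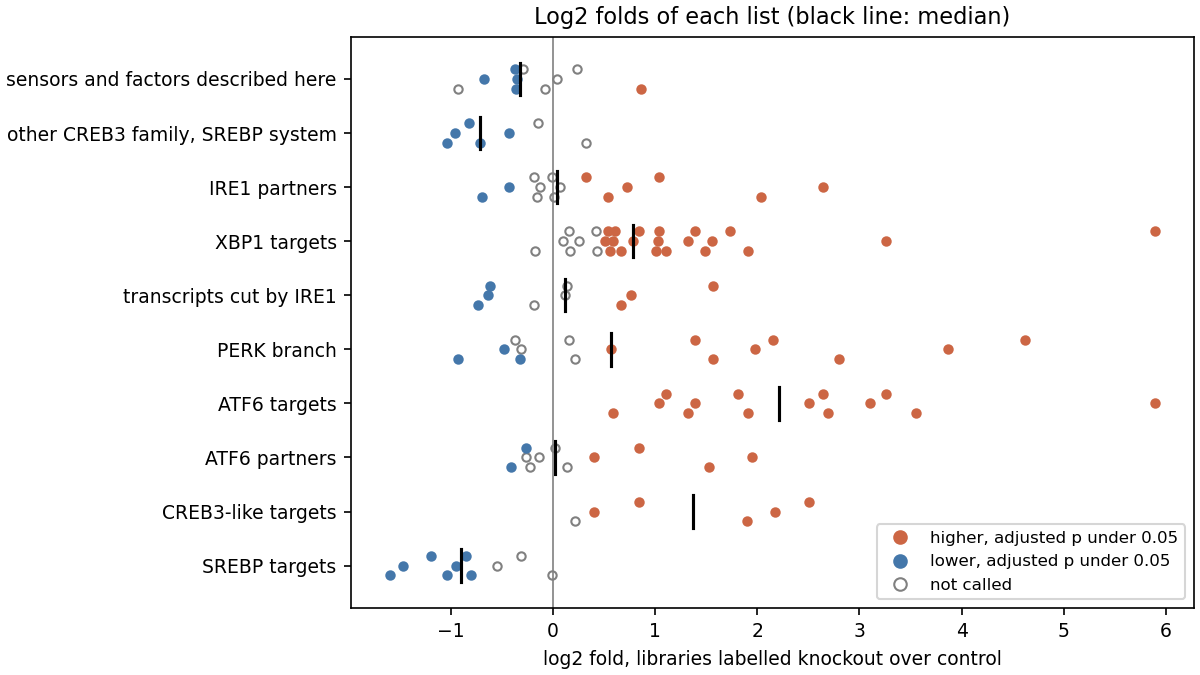
Log2 fold of every tested gene (x axis) in the 10 sensors and factors and in 9 lists of related genes; orange and blue points were called higher and lower, open points were not called, and black lines are medians. The medians lie at -0.32 for the sensors and factors, 0.79 for XBP1 targets, 0.57 for the PERK branch list, which includes the other eIF2alpha kinase genes, and 2.21 for ATF6 targets.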

How the data were processed

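The authors deposited raw counts per gene symbol, made from paired reads of NEBNext Ultra libraries per the labels' protocols, which do not state strand. Per the submitters' processing notes the build was mm10 and edgeR 3.7 was used. Which aligner, counter and annotation were used was not given in the sources used here. Genes with 2 counts outnumbered those with 1 by 1.63 to 1.76 times, so mates may be counted separately. From the counts, edgeR 4.0.16 (R 4.3.3; filterByExpr, TMM factors, robust quasi-likelihood F test, group as the only term) tested 18849 genes, and Benjamini-Hochberg adjusted p under 0.05 was a call. CPM are TMM-scaled. SE was taken as the log2 fold over the root of F, and the common coefficient of variation came to 22.3%. The members, lists and alternatives were chosen with earlier results of these data known. Lists are described by counts only. Named were the 10 genes, the 4 lowest adjusted p of each list, any sole call in 1 direction, the 3 genes most like Atf6 and Xbp1, and Hspa5; some genes this rule names are not reported here. Muc5b, Creb3, Creb3l4, Insig2, Sec61a1, the genes with printed elements and Calr were chosen after their values were seen. Deviations from group means correlated at 0.156, 0.138 and 0.269 between same-numbered libraries, and the numbers were also used as a block. Between numbers 1 and 2 the values were 0.0783 and 0.106, so these hardly tell 1 from 2. Pairs of a library numbered 3 with one numbered 1 or 2 gave -0.21 to -0.167. Alternatives were DESeq2 1.42.0, limma-voom (limma 3.58.1), other scalings and filters, and leaving out libraries. The scripts were tested on simulated counts. Sequences come from RefSeq and GENCODE M21; protein sequences were not used here.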

Additional observations from a re-analysis of the deposited data

How the results depend on the processing

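Leaving out 1 library gave 3706 to 8548 called genes, 1 or 2 of the 10 sensors and factors higher and 2 to 5 lower, the 2 without control 2, library 1 or library 2 labelled knockout. Log2 folds then ran from -0.43 to -0.32 for Ern1, -1.60 to -0.61 for Ern2, -0.292 to 0.0783 for Xbp1, -0.0155 to 0.0608 for Eif2ak3, -0.38 to -0.33 for Mbtps1, 0.18 to 0.28 for Mbtps2 and -0.39 to -0.23 for Creb3l2. Scaling by library size gave 2 higher and 0 lower, with -0.11 for Ern1, -0.10 for Atf6b, -0.096 for Mbtps1 and -0.42 for Creb3l1 no longer called, Mbtps2 called at 0.48, and Xbp1 reversed at 0.19; 82.2% of all calls were then higher, against 48.9% with TMM and 59.2% with upper-quartile factors. Upper-quartile factors gave 0.0029 for Xbp1. Mbtps2 made 2 higher with upper-quartile factors (0.30), DESeq2 (0.25), the 5 CPM filter (0.28) and the replicate block (0.23). The block also called Creb3l2 (-0.28) and changed no other call among the 10. Without both libraries numbered 3, an alternative chosen with the results known, 10581 genes were called, with Mbtps2 at 0.28, Creb3l2 at -0.32 and Ern2 at -1.92, so 2 were higher and 6 lower. The causes were not tested. List counts moved by over 1.5 times with library size scaling (CREB3 family and SREBP system list 3 lower and 1, Creb3, higher, PERK branch 1 lower, IRE1 and ATF6 partners 0 lower), without filter (CREB3-like targets 3 higher, ATF6 partners 1 lower), with upper-quartile factors (ATF6 partners 1 lower), the block (Creb3 higher), and without both libraries numbered 3 (ATF6 partners 4 lower, Creb3 and 1 SREBP target higher). With 1 library left out, 12 to 22 XBP1 targets and 3 to 6 CREB3-like targets were higher. Lower were 1 or 2 IRE1 partners, 1 to 3 genes of the PERK branch list and 0 to 4 ATF6 partners. Counts of Ern2, at most 145, limit its precision.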
